A study of Setaria italica with 24 samples.

Results

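The expression of 5 foxtail millet (Setaria italica) genes was followed in roots with and without an arbuscular mycorrhizal fungus (AMF). Of these, 4 belong to the common symbiosis signaling pathway, namely DMI2 (SETIT_029334mg), CASTOR (SETIT_034161mg), DMI3 (SETIT_021787mg) and CYCLOPS (SETIT_008637mg), and the remaining gene is VAPYRIN (SETIT_035002mg). They were taken by identifier from the 23789 genes listed for all 3 lines, and all 5 had values in every library. Root RNA was sequenced from the landrace Hanevalval and the cultivar TT8, both from Taiwan, and from the Indian landrace ISE36, written ICE36 in the library labels. Each line had 4 libraries from plants inoculated with Claroideoglomus etunicatum (AMF) and 4 from plants left without the fungus (mock), giving 24 libraries in 6 groups. All plants grew in autoclaved sand and peat moss, and their roots were collected 6 weeks after inoculation. Libraries of a group carry replicate numbers in their labels, and how the plants behind them were separated is not given in the sources used here, so p-values measure the spread between these libraries.

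Common symbiosis genes are required by plants to let mycorrhizal fungi, and in legumes also rhizobia, into root cells. A receptor-like kinase at the plasma membrane acts with LysM receptors that perceive fungal molecules, channels of the nuclear envelope shape calcium oscillations in the nucleus, and a calcium- and calmodulin-dependent kinase reads these oscillations and phosphorylates a transcriptional activator. VAPYRIN acts in the same root cells, where in petunia and Medicago it is needed for the fungus to enter cells and form arbuscules. The names DMI2 and DMI3 come from Medicago, and CASTOR and CYCLOPS from Lotus japonicus.

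Values are gene counts divided by a size factor per library and are called signal, and the libraries held 15013564 to 23333517 reads on genes with a median of 19008439. The labelled treatments were compared on 5 genes of colonized roots, the phosphate transporter PHT1;9, the regulator RAM1, the lipid genes RAM2 and FatM and the transporter STR2. The paper reported these markers as raised by AMF in these same roots, so a higher sum in AMF libraries is no independent check. Their summed signal was between 10.2 and 27.5 in 9 of the 12 mock libraries, and in each of these 1 to 3 of the 5 markers had no reads. It was higher in mock replicates 3 and 4 of Hanevalval, at 152 and 57.2, and in mock replicate 4 of TT8, at 135. In AMF libraries the sum was 212 to 2012 for Hanevalval, 3782 to 7013 for TT8 and 145 to 547 for ISE36. By the marker sum, mock replicate 3 of Hanevalval and mock replicate 4 of TT8 stood furthest from the other mock libraries. Results that rest on them are given with and without them. Over the reads of all genes, the Hanevalval mock libraries differed least between replicates 1 and 2 (chi-square per gene 17.9) and between 3 and 4 (47.7). Between replicate 1 or 2 and replicate 3 or 4 the chi-square per gene was 168 to 183. The paper also reports that mock Hanevalval was the group that did not cluster well.

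The clearest pattern was in VAPYRIN, which rose in AMF roots of TT8 and ISE36, and in DMI3, whose AMF response in TT8 differed from that in both landraces. CYCLOPS rose in TT8 from a very low level. In Hanevalval the log2 fold change (AMF over mock) was 1.08 for VAPYRIN and 1.57 for CYCLOPS. Neither passed the adjusted p of 0.05 in the limma fit of that line, where few genes of any kind passed. For these 2 genes no difference in response between Hanevalval and another line passed either. DMI2 and CASTOR did not pass in any line when each line was fitted on its own. Because whole roots were sequenced, fewer cells of a type and less RNA per cell cannot be told apart.

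**Figure D1:**
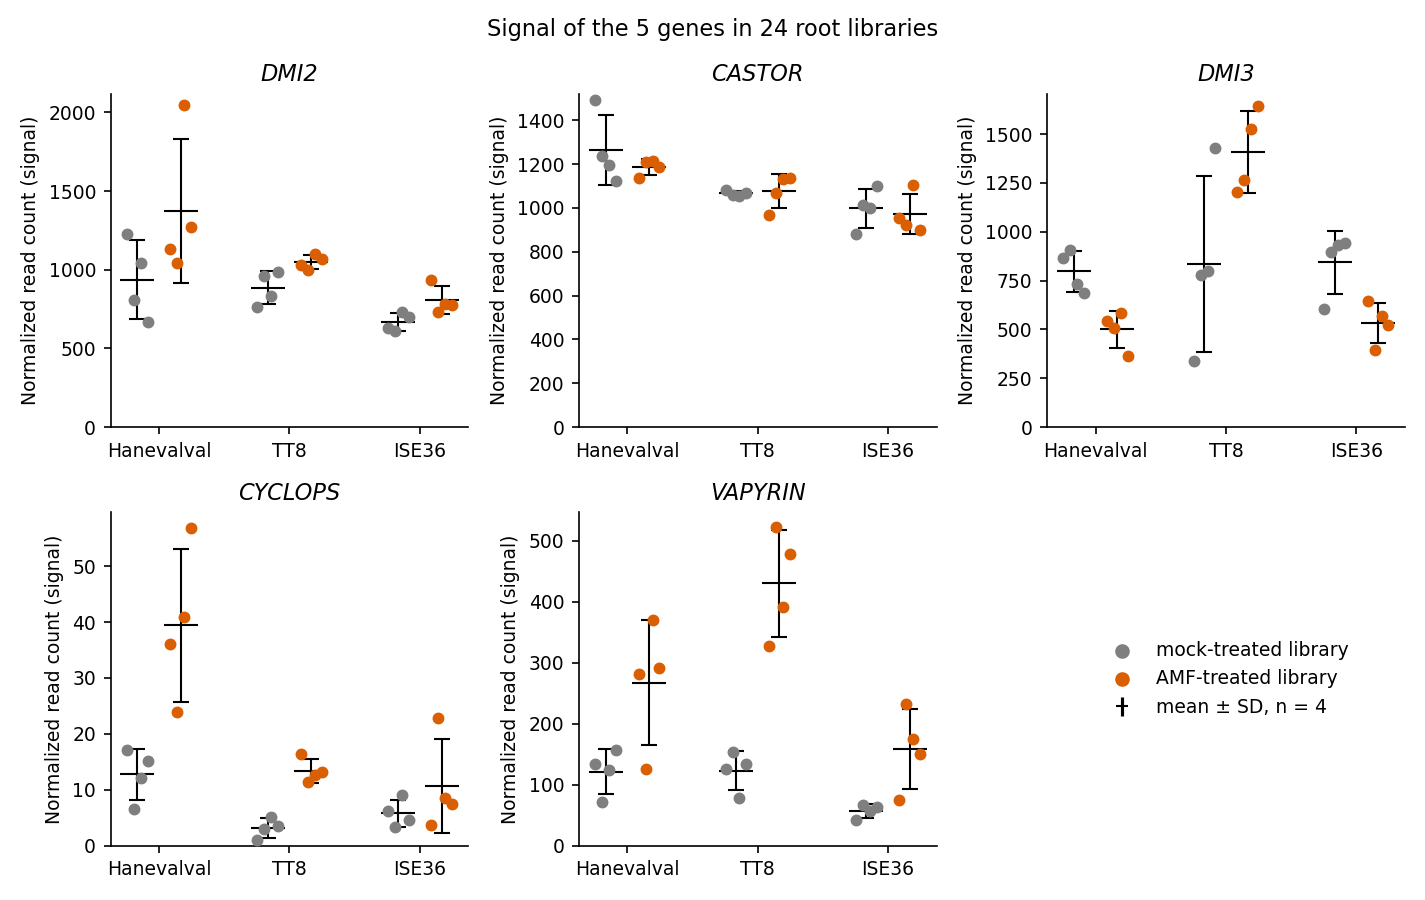
Signal (normalized read count, linear axis from 0) of each gene in every library by line, with mock libraries in grey, AMF libraries in orange and bars for mean ± SD (n = 4). DMI3 sits above 1200 in all AMF libraries of TT8 and between 364 and 643 in the AMF libraries of Hanevalval and ISE36, while VAPYRIN is higher in AMF libraries of each line with 1 Hanevalval library overlapping.

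DMI2 encodes the receptor-like kinase at the start of the pathway. Its signal in Hanevalval was 1230, 810, 1046 and 665 in mock replicates 1 to 4 and 1130, 1045, 2048 and 1274 in AMF replicates 1 to 4. In TT8 it was 765, 961, 835 and 988 under mock and 1030, 998, 1100 and 1068 under AMF. In ISE36 it was 629, 609, 729 and 698 under mock and 935, 731, 784 and 778 under AMF. Every AMF library lay above every mock library in TT8 and ISE36, though by a narrow margin, whereas the treatments overlapped in Hanevalval, where AMF replicate 3 was far above the rest. The log2 fold change (AMF over mock, on signal plus 1) was 0.54 (SE 0.27) for Hanevalval, 0.25 (SE 0.11) for TT8 and 0.27 (SE 0.11) for ISE36. None passed the adjusted p of 0.05 in limma fits of each line (0.189, 0.124 and 0.0866, Benjamini-Hochberg over all genes). For Hanevalval, DMI2 reached a limma adjusted p of 0.0273 in 1 fit over all 24 libraries, short of the 2-fold threshold, and its change was 0.33 without AMF replicate 3. By mean level the groups ranked Hanevalval AMF (1374 ± 459, SD, n = 4), TT8 AMF, Hanevalval mock, TT8 mock, ISE36 AMF and ISE36 mock (666 ± 56.4), and each neighbouring pair overlapped within 1 SD.

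CASTOR encodes a cation channel of the nuclear envelope, and its level was the steadiest of the 5 genes. In Hanevalval the signal was 1491, 1238, 1195 and 1125 in the mock replicates and 1135, 1207, 1215 and 1186 in the AMF replicates. In TT8 it was 1084, 1059, 1054 and 1067 under mock and 970, 1068, 1132 and 1136 under AMF. In ISE36 it was 882, 1014, 998 and 1099 under mock and 955, 924, 1103 and 900 under AMF. Treatments overlapped in each line. Log2 fold changes were −0.08 (95% CI −0.38 to 0.21) for Hanevalval, 0.01 (−0.21 to 0.23) for TT8 and −0.04 (−0.28 to 0.19) for ISE36, so these intervals lay inside the 2-fold threshold on both sides. The limma adjusted p was 0.677, 0.940 and 0.794. From the highest group mean (Hanevalval mock, 1262 ± 160, SD, n = 4) to the lowest (ISE36 AMF, 970 ± 90.9) the ratio was 1.30, and all neighbours in the order overlapped.

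DMI3 encodes the kinase that is activated by calcium and calmodulin in the nucleus, and its AMF response pointed in opposite directions in TT8 and the landraces. Hanevalval libraries held a signal of 864, 907, 731 and 686 under mock and 546, 505, 585 and 364 under AMF. TT8 libraries held 336, 777, 800 and 1430 under mock and 1203, 1266, 1524 and 1642 under AMF. ISE36 libraries held 605, 895, 931 and 944 under mock and 643, 397, 571 and 521 under AMF. All AMF libraries of Hanevalval were below all mock libraries, in ISE36 only mock replicate 1 and AMF replicate 1 overlapped, and in TT8 the AMF libraries were above all mock libraries except replicate 4. The mock libraries of TT8 were the least even, spanning a 4.25-fold range.

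In ISE36, DMI3 fell by 0.66 on the log2 scale (SE 0.18, limma adjusted p 0.0254), short of the 2-fold threshold. This adjusted p ranged from 0.0058 to 0.0717 when single libraries were omitted and missed 0.05 without mock replicate 2, 3 or 4 or AMF replicate 2 or 4. In Hanevalval the log2 fold change of DMI3 was −0.68 (SE 0.18, limma adjusted p 0.0635), and without mock replicate 3 it was −0.72 with an adjusted p of 0.0424. With any other single library omitted the limma adjusted p stayed above 0.05, at up to 0.162. In TT8 the log2 fold change of DMI3 was 0.92 (SE 0.37, limma adjusted p 0.0873). Without mock replicate 4, the TT8 library that also held the most colonization marker signal under mock, it was 1.23 with an adjusted p of 0.00859, past both thresholds. Without mock replicate 1, the lowest in DMI3, it was 0.54 with an adjusted p of 0.13. TT8 AMF had the highest group mean of DMI3 (1409 ± 208, SD, n = 4), followed by the 3 mock groups at 844 ± 161 in ISE36, 836 ± 450 in TT8 and 797 ± 105 in Hanevalval, whose values overlapped, and then by ISE36 AMF (533 ± 104) and Hanevalval AMF (500.0 ± 96.4), which also overlapped each other.

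CYCLOPS encodes the transcriptional activator that the DMI3 kinase phosphorylates and that in Lotus japonicus switches on RAM1. It had few reads in every library. The signal in Hanevalval was 17.1, 6.64, 12.1 and 15.1 under mock and 36.2, 23.8, 41.0 and 56.9 under AMF, from 49 and 149 reads in total. In TT8 it was 0.931, 2.93, 5.12 and 3.55 under mock and 16.4, 11.4, 12.6 and 13.2 under AMF, from 13 and 50 reads. In ISE36 it was 6.21, 3.31, 9.04 and 4.55 under mock and 3.78, 22.9, 8.59 and 7.46 under AMF, from 26 and 45 reads. AMF and mock libraries did not overlap in Hanevalval and TT8, and in ISE36 a single library, AMF replicate 2, stood above the mock range.

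In TT8, CYCLOPS rose by a log2 fold change of 1.90 (SE 0.41, limma adjusted p 0.0139), and without mock replicate 4 the change was 1.99. The gene reached the minimum mean of 5 for testing in TT8 only through the AMF libraries (13.4, against 3.13 under mock). With no minimum the limma adjusted p was 0.0136. The pseudocount weighs on a gene with so few reads, and with a pseudocount of 8 the change was 0.95, below the 2-fold threshold. In Hanevalval the log2 fold change of CYCLOPS was 1.57 (SE 0.39), and its limma adjusted p of 0.0549 just missed the threshold, while without mock replicate 3 it was 0.0405 at the same fold change. Omitting any other single library left this limma adjusted p above 0.05, at up to 0.162. In ISE36 the value was 0.60 (95% CI −0.55 to 1.75, limma adjusted p 0.402), an interval that holds both no change and a change of more than 2-fold. Without AMF replicate 2 the CYCLOPS value in ISE36 was 0.18, and without AMF replicate 1 it was 0.95, neither of them past the threshold (limma adjusted p 0.798 and 0.179). Hanevalval AMF was the highest group for CYCLOPS (39.5 ± 13.7, SD, n = 4) and stood clear of the next, TT8 AMF (13.4 ± 2.13), while each later neighbour overlapped down to TT8 mock (3.13 ± 1.73).

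VAPYRIN encodes a protein with an MSP domain and ankyrin repeats that in petunia and Medicago is found in cells entered by the fungus. In Hanevalval its signal was 133, 71.2, 124 and 157 under mock and 282, 125, 370 and 291 under AMF. In TT8 it was 126, 153, 78.5 and 134 under mock and 327, 523, 392 and 479 under AMF. In ISE36 it was 41.7, 66.2, 56.1 and 62.8 under mock and 74.7, 233, 174 and 150 under AMF. Treatments did not overlap in TT8 or ISE36, and in Hanevalval AMF replicate 2 was within the mock range while the other AMF libraries were above it.

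The mean of VAPYRIN rose from 123 ± 31.7 to 430 ± 87.7 in TT8 (SD, n = 4) and from 56.7 ± 10.9 to 158 ± 65.4 in ISE36. On the log2 scale this was 1.82 in TT8 (SE 0.23, limma adjusted p 0.0015) and 1.37 in ISE36 (SE 0.32, limma adjusted p 0.0123). Both calls held in each fit with 1 library omitted, at 1.62 to 1.94 in TT8 and 1.15 to 1.69 in ISE36. Hanevalval had means of 122 ± 36.4 and 267 ± 102 (SD, n = 4), a log2 fold change of 1.08 (SE 0.37) and a limma adjusted p of 0.0945 that missed the threshold. The 3 AMF groups headed the order of VAPYRIN levels and overlapped from one to the next, TT8 mock and Hanevalval mock overlapped each other, and ISE36 mock lay below all other groups without overlap.

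**Figure D2:**
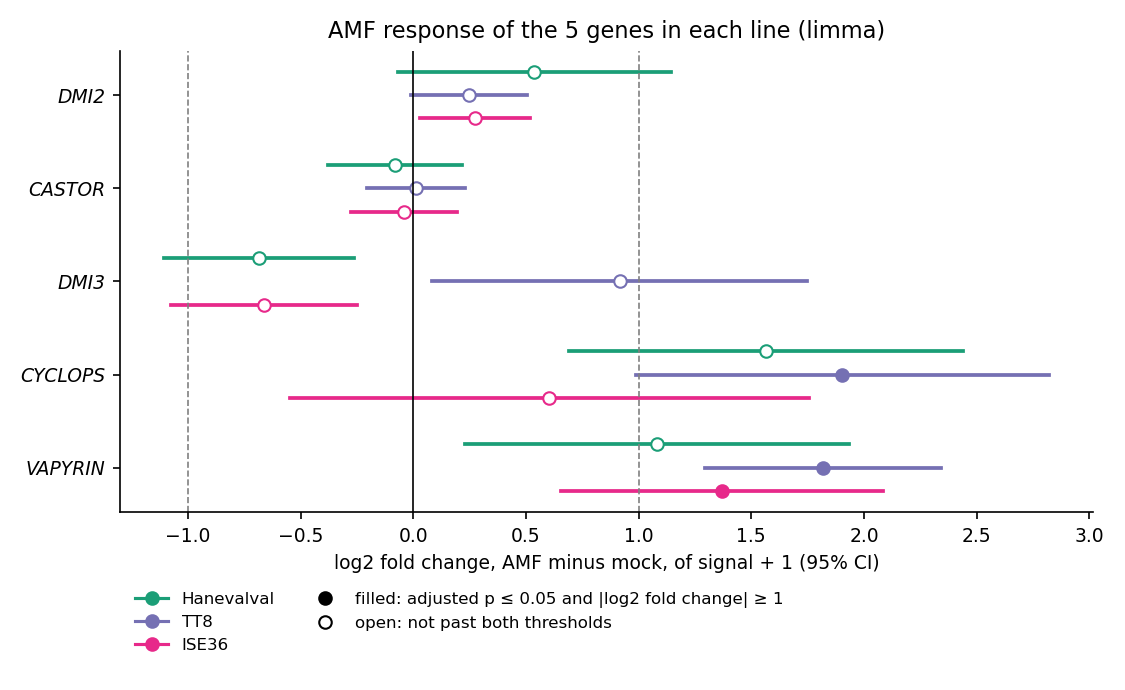
Log2 fold change of AMF over mock for each gene and line (points, limma on signal plus 1) with 95% confidence intervals (lines), the dashed verticals marking a 2-fold change. Filled points passed an adjusted p of 0.05 and the 2-fold threshold, which held for VAPYRIN at 1.82 in TT8 and 1.37 in ISE36 and for CYCLOPS at 1.90 in TT8.

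Counted by line, 2 of 5 genes passed both thresholds in TT8 (CYCLOPS and VAPYRIN, both higher), where 16.7% of all tested genes did and 10.6% did so as higher in AMF roots. In ISE36 1 of 5 passed (VAPYRIN, higher), against 10.6% of all genes in either direction and 5.79% as higher. In Hanevalval 0 of 5 passed with limma, against 2.83%, although 3 of 5 had an unadjusted p under 0.05, as did 33.0% of all genes in that line. There DESeq2 passed 2 of the 5, CYCLOPS and VAPYRIN, against 14.5% of all genes, and edgeR 0, against 3.08%. In the limma fit of Hanevalval alone, few genes of any kind passed. Their number over the whole genome, 704, went to 0 when mock replicate 1 or 2 or AMF replicate 1, 3 or 4 was omitted. It went to 1 without mock replicate 4, to 123 without AMF replicate 2 and to 3950 without mock replicate 3. With the adjusted p alone, DMI3 was added in ISE36 to make 2 of 5, against 28.8% of all genes, while the counts stayed at 2 in TT8, against 29.1%, and at 0 in Hanevalval, against 3.36%. With so few members these shares give no more than a description.

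AMF libraries were entirely above mock libraries in TT8 for 3 of the 5 genes, DMI2, CYCLOPS and VAPYRIN, against 12.6% of all genes with this order. In ISE36 this held for DMI2 and VAPYRIN, against 17.1%, and in Hanevalval for CYCLOPS alone, against 11.6%. AMF libraries were entirely below mock libraries for DMI3 in Hanevalval, an order found in 9.08% of genes there. Taken over the 5 genes, the median log2 fold change was 0.54 for Hanevalval, 0.92 for TT8 and 0.27 for ISE36, beside 0.01, −0.01 and −0.01 for all genes tested.

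Whether the AMF response itself differed between lines was tested in 1 limma model of the 6 group means over all 24 libraries. The response of DMI3 in Hanevalval minus that in TT8 was −1.60 on the log2 scale (SE 0.40, limma adjusted p 0.0132). In this contrast DMI3 was the only 1 of the 5 genes to pass, and 15.3% of all 23417 genes passed. The response in TT8 minus that in ISE36 was 1.58 (SE 0.40, limma adjusted p 0.0145), again for DMI3 alone, beside 14.3% of all genes. The TT8 libraries are part of both contrasts. Between the landraces the DMI3 responses differed by −0.02 (95% CI −0.86 to 0.82), an interval that leaves room for a difference of nearly 2-fold, and only 0.0256% of all genes passed this contrast, a count of 6 genes.

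Both differences of DMI3 passed in all 24 fits with a single library omitted, at −1.92 to −1.22 for Hanevalval minus TT8 and at 1.20 to 1.90 for TT8 minus ISE36. Without mock replicate 3 of Hanevalval and mock replicate 4 of TT8 together, the values for DMI3 were −1.96 and 1.90. The other 4 genes passed no contrast of responses. CYCLOPS in TT8 minus ISE36 came nearest, at 1.30 (95% CI 0.01 to 2.58) with a limma adjusted p of 0.162. For VAPYRIN the response in Hanevalval minus TT8 was −0.74 (95% CI −1.74 to 0.26) and in TT8 minus ISE36 was 0.45 (95% CI −0.55 to 1.45), so a larger response of VAPYRIN in TT8 was not shown. The intervals for CASTOR lay within −0.38 to 0.34 in the 3 contrasts.

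**Figure D3:**
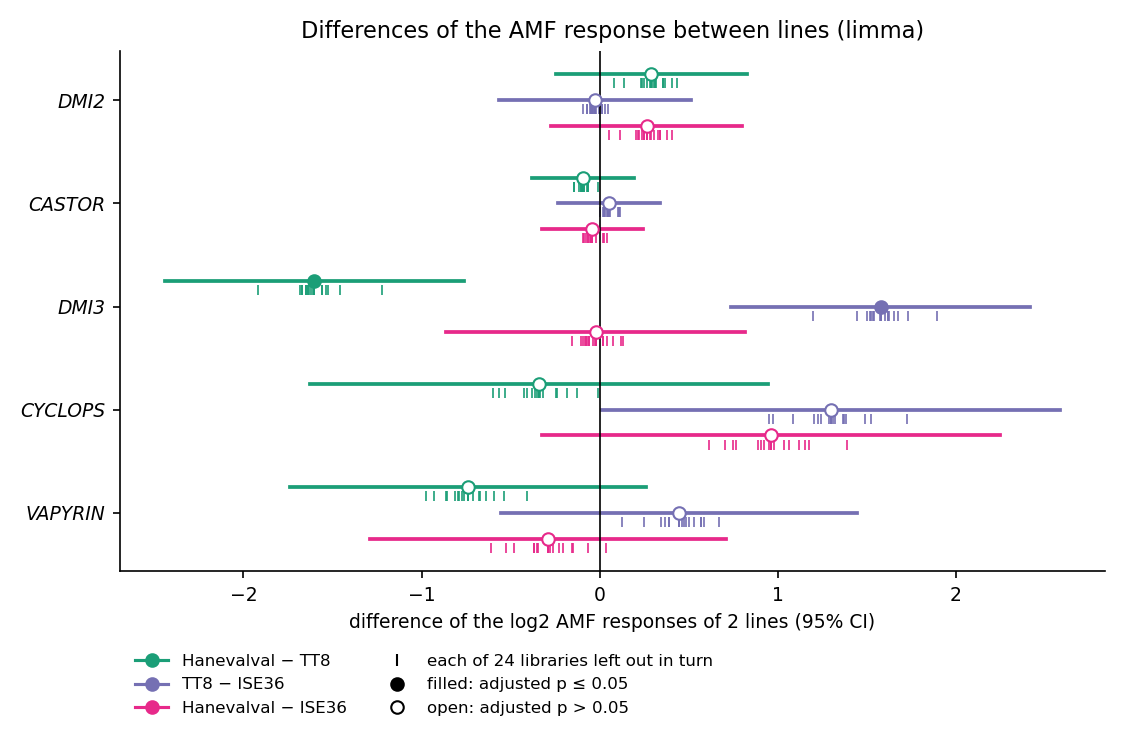
Difference of the log2 AMF responses of each pair of lines (points) with 95% confidence intervals (lines) and, as ticks under each, the values with each of 24 libraries omitted in turn. DMI3 is the only gene with filled points (adjusted p at most 0.05), at −1.60 for Hanevalval minus TT8 and 1.58 for TT8 minus ISE36, and its value for Hanevalval minus ISE36 is −0.02.

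The deposited values of the 3 lines are on a common scale, so levels in mock roots were also compared. CYCLOPS was higher in mock Hanevalval (12.7 ± 4.55, SD, n = 4) than in mock TT8 (3.13 ± 1.73), at a log2 difference of 1.78 (SE 0.44, limma adjusted p 0.0189), and was the 1 gene of 5 to pass there, where 6.42% of all genes did. Its mock mean in TT8 lay under the minimum of 5, and it entered this test through the AMF libraries of TT8. VAPYRIN was lower in mock ISE36 than in mock TT8, at a log2 difference of 1.08 for TT8 minus ISE36 (SE 0.34, limma adjusted p 0.0218), again 1 of 5 against 29.4% of all genes. Between Hanevalval and ISE36 2 of 5 genes passed, against 11.6% of all genes. These were CASTOR, at 0.33 (SE 0.10, limma adjusted p 0.0271), and VAPYRIN, at 1.05 (SE 0.34, limma adjusted p 0.0486), both higher in Hanevalval.

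The mock differences were less steady than those of the DMI3 response. VAPYRIN in Hanevalval minus ISE36 missed the threshold in 17 of 24 fits with a library omitted, with adjusted p up to 0.122. For CASTOR this happened in 4 fits, without Hanevalval mock replicate 1 or ISE36 mock replicate 1, 2 or 3, where the adjusted p reached 0.0951. CYCLOPS in Hanevalval minus TT8 missed it without Hanevalval mock replicate 3 or 4 or TT8 mock replicate 1, with an adjusted p up to 0.0731. VAPYRIN in TT8 minus ISE36 missed it without TT8 mock replicate 1 or 2 or ISE36 mock replicate 1, with an adjusted p up to 0.0688. DMI3 did not pass in any pair, at 0.10 for Hanevalval minus TT8 (95% CI −0.50 to 0.69), −0.07 for Hanevalval minus ISE36 (−0.66 to 0.53) and −0.17 for TT8 minus ISE36 (−0.76 to 0.43).

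A list of 10 other mycorrhizal genes, taken from those the study examined in these same roots and so no independent evidence of direction, was set beside the members. It holds the LysM receptor gene NFR5, the transcription factor genes RAM1, RAD1 and TF72, the lipid genes RAM2 and FatM, the transporter genes STR, STR2 and PHT1;9, and EXO70I, an exocyst subunit gene. All 5 colonization markers are among them. In TT8 9 of the 10 rose past both thresholds, in ISE36 6 and in Hanevalval 1 (RAM1), and 0 fell in limma in each line. At an unadjusted p under 0.05, 9 of the 10 differed by at least 2-fold in Hanevalval, against 17.9% of all genes there. This list had a median log2 fold change of 2.14 for Hanevalval, 4.74 for TT8 and 1.70 for ISE36.

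NFR5, whose product acts at the membrane like that of DMI2, had log2 fold changes of 1.22 (Hanevalval), 0.82 (TT8) and 0.35 (ISE36) at limma adjusted p of 0.0858, 0.0783 and 0.341. It thus passed in none of these fits by line, as was the case for DMI2. RAM1, a target of CYCLOPS in Lotus japonicus, rose by 5.35 in Hanevalval, 7.23 in TT8 and 4.20 in ISE36 (limma adjusted p 0.0401, 0.000111 and 0.000875). RAD1 had values of −0.88 in Hanevalval, 2.27 in TT8 and −0.52 in ISE36, of which only the rise in TT8 passed (limma adjusted p 0.0227), and these signs by line were those of DMI3.

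The levels of VAPYRIN and CYCLOPS also varied among AMF libraries of a line. In Hanevalval AMF replicate 2 held the least colonization marker signal of its group (212) and also the least VAPYRIN (125) and CYCLOPS (23.8). AMF replicate 1 of Hanevalval held the most marker signal (2012) but was highest in neither gene, with VAPYRIN at 282 and CYCLOPS at 36.2. In ISE36 AMF replicate 1 was lowest in the markers (145), in VAPYRIN (74.7) and in CYCLOPS (3.78). AMF replicate 2 of ISE36 was highest in VAPYRIN (233) and CYCLOPS (22.9) at a marker signal of 202. AMF replicate 4 of ISE36 held the most marker signal (547), with VAPYRIN at 150 and CYCLOPS at 7.46. In TT8 the AMF library lowest in the markers, replicate 4 at 3782, was lowest in neither gene, with VAPYRIN at 479 and CYCLOPS at 13.2. Among the mock libraries of TT8, replicate 4 was highest both in the markers (135) and in DMI3 (1430), but was within the range of the others for VAPYRIN (134) and CYCLOPS (3.55). Mock replicate 3 of Hanevalval, with a marker signal of 152, was within the range of its group for these 3 genes. The part of colonization in the differences between libraries was not tested.

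**Figure D4:**
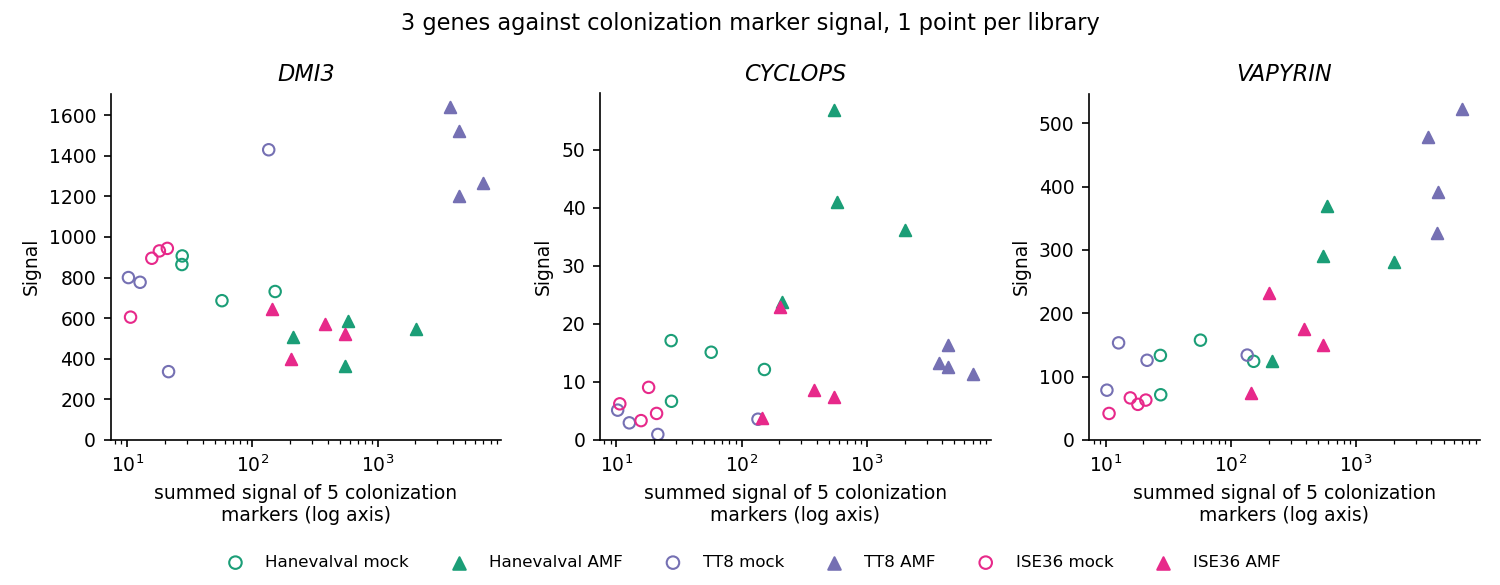
Signal of DMI3, CYCLOPS and VAPYRIN (linear axes from 0) against the summed signal of 5 colonization markers (log axis), 1 point per library, with open circles for mock, filled triangles for AMF and a colour per line. The AMF libraries of TT8 hold the most marker signal (3782 to 7013) and the most DMI3 apart from mock replicate 4 of TT8 at 1430, while CYCLOPS is highest in Hanevalval AMF libraries with marker signal of 212 to 2012.

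Over the 24 libraries the 5 genes did not share a single pattern. The log2 values of DMI2 correlated with those of VAPYRIN (r = 0.63), CYCLOPS (0.60) and CASTOR (0.56), and CYCLOPS with VAPYRIN gave 0.57. CASTOR gave 0.35 with CYCLOPS and 0.22 with VAPYRIN, and DMI3 gave −0.17 to 0.16 with the other genes. Around the group means, the strongest correlation in any pair was between CYCLOPS and VAPYRIN (r = 0.46), and DMI3 with CYCLOPS gave 0.02. All are descriptions over libraries that share lines and treatments. Among 16297 genes whose mean reached 50 in every line, the gene most like DMI3 across the 24 libraries was SETIT_037275mg (r = 0.93). Its mean signal went from 955 to 647 in Hanevalval and from 1224 to 598 in ISE36 between mock and AMF, and from 1410 to 3014 in TT8. The TT8 mock mean of this gene rested on replicate 4 at 3612, above every AMF library, and was 676 without it. The gene most like VAPYRIN was SETIT_022099mg (r = 0.93), whose mock and AMF means were 115 and 284 (Hanevalval), 144 and 560 (TT8), and 49.1 and 120 (ISE36). The closest genes to CASTOR, DMI2 and CYCLOPS were SETIT_035742mg (r = 0.90), SETIT_005814mg (r = 0.86) and SETIT_009682mg (r = 0.89).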

How the data were processed

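Root libraries were made from mRNA, and the authors used Trimmomatic 0.38 for trimming, HISAT2 2.1.0 for alignment to S. italica v2.0, featureCounts 2.0.0 for the count of each gene and DESeq2 1.26.0 for the size factors that divide the counts. The deposited signal values are these normalized read counts, 1 table per line. All 607864 values (100%) were whole multiples of 1 step per library (tolerance 0.01), which returned the reads, and 0 columns lacked a sample.

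The 5 genes and the lists were chosen with earlier results of these data known. AMF and mock libraries were compared in each line with limma 3.58.1 (R 4.3.3) on log2(signal + 1) with a variance trend, for genes whose mean reached 5 (24847, 24880 and 25036 genes), with Benjamini-Hochberg adjustment over all of them. Both thresholds mean an adjusted p no higher than 0.05 and a 2-fold change or more. Differences between lines came from 1 model of the 6 group means (23417 genes). Named genes were the 5 members, the most similar genes by Pearson r, and listed genes where a comparison turned on them. edgeR 4.0.16 and DESeq2 1.42.0 on the recovered reads, other pseudocounts, filters and scalings, a replicate block and omission of single libraries were tried. Leaving out both mock libraries with high marker signal was chosen after seeing the data. The fits were tested on simulated data with 200 changed genes.

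Nothing in the labels ties libraries of the same number together, and the numbers were not used as pairs. No pair of libraries repeated the same reads (smallest chi-square per gene 6.94). The RefSeq table used here matched 0 of these gene identifiers, so gene lengths, positions and sequences are not given, levels are not compared between genes, and tissue markers and further pathway genes by description were not checked here. Intervals cover the spread between libraries. Figures were drawn with matplotlib 3.10.9 in Python 3.11.15.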

Additional observations from a re-analysis of the deposited data

Results flagged for a closer look

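Between lines, the AMF response of DMI3 was −1.60 on the log2 scale in Hanevalval minus TT8 and 1.58 in TT8 minus ISE36, and both differences passed the test of the difference itself (limma interaction, adjusted p 0.0132 and 0.0145). Within the mock libraries of ISE36, the DMI3 signal of replicate 1, 605, lay far below the other 3, which were at 895 to 944. It was the only group of 30 (5 genes in 6 groups) with a library so far from the rest by Dixon's criterion, which chance alone meets in about 1 in 20 groups. Without this library the log2 fold change of DMI3 in ISE36 was −0.81 (limma adjusted p 0.0058).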

How the results depend on the processing

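Both differences of the DMI3 response passed under all alternatives tried. In Hanevalval 2 of the 5 genes passed both thresholds with DESeq2, against 14.5% of all genes. In 1 fit over 24 libraries 2 passed, against 18.4%. By adjusted p alone 3 passed in each, with DMI3 added by DESeq2 and DMI2 by the fit over 24 libraries. So did 2417 genes higher and 3219 lower of 24847 with DESeq2, and 4225 higher and 4119 lower of 23417 in that fit. With 1 library omitted, 0 to 1 passed both thresholds and 0 to 2 the adjusted p alone. The 1 and 2 came without mock replicate 3, where 15.9% of all genes passed both thresholds. Wherever these numbers rose, the share of all genes was also above the 2.83% of the main fit. In TT8 the number past both thresholds was 1 with a pseudocount of 8, against 14.7% of all genes. It was also 1 with a minimum mean of 20, where CYCLOPS was not tested (1 also by adjusted p alone), against 17.2%. By adjusted p alone it was 3 in 1 fit over 24 libraries, where DMI3 passed by limma (0.0219), against 17.0% of all genes higher and 12.5% lower. With a library omitted it was 2 to 3, against 5.89% to 23.4% higher and 4.33% to 20.4% lower. In ISE36 the number by adjusted p alone was 1 in 1 fit over 24 libraries, against 8.43% of all genes higher and 6.10% lower. With a library omitted it was 1 to 2, against 9.68% to 14.6% higher and 8.49% to 13.6% lower. For mock levels, the share of all genes under each alternative is not given here, so the numbers are no more than a description. In Hanevalval minus TT8 the number was 0 with a minimum mean of 20, where CYCLOPS was not tested. It was also 0 in a fit on 8 mock libraries, and 0 to 1 with a library omitted. In Hanevalval minus ISE36 the number was 1 with a pseudocount of 8, a minimum mean of 20, scaling to library totals (CPM), quantile scaling, no variance trend, or both marker-rich mock libraries left out, 0 in the fit on 8 mock libraries, and 0 to 2 with a library omitted. In TT8 minus ISE36 it was 2 with CPM and in the fit on 8 mock libraries, and 0 to 2 with a library omitted. The causes were not tested.

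Same-numbered mock and AMF libraries deviated together only in part. The correlation of their deviations from the group means was −0.14 to 0.23 over 12 pairs and over 0.1 in 5 of them, and 7 of 12 mock libraries correlated best with the AMF library of their own number, a hint from the data and not from the design. With the replicate number as a block, the genes past both thresholds in Hanevalval went from 704 to 1867, 2 genes passed in Hanevalval (CYCLOPS, adjusted p 0.0418, and VAPYRIN, 0.0407) by limma, with and without the fold threshold, and DMI3 in TT8 passed the adjusted p alone (0.0395). The block changed no other call.

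CPM scaling shifted all genes together, with a median of −0.24 in TT8 and −0.11 in Hanevalval. Small values that passed no test changed sign. For responses within a line or between lines these were CASTOR in TT8 with CPM (−0.23), quantile scaling (−0.14) and edgeR (−0.0066), CASTOR in Hanevalval minus TT8 with CPM (0.031) and in TT8 minus ISE36 with CPM (−0.11) and quantile scaling (−0.023), CYCLOPS in Hanevalval minus TT8 with a pseudocount of 8 (0.23) and quantile scaling (0.057), and DMI2 in TT8 minus ISE36 without both marker-rich mock libraries (0.028). For mock levels in Hanevalval minus TT8 they were DMI2 with CPM (−0.059) and quantile scaling (−0.032) and DMI3 with CPM (−0.0087), DESeq2 (−0.069) and edgeR (−0.079). With 1 library omitted, the ranges that crossed 0 were, for responses, CASTOR in Hanevalval (−0.13 to 0.00089), TT8 (−0.016 to 0.060), ISE36 (−0.10 to 0.0063) and Hanevalval minus ISE36 (−0.093 to 0.042), DMI3 (−0.16 to 0.13) and VAPYRIN (−0.61 to 0.037) in Hanevalval minus ISE36, and DMI2 in TT8 minus ISE36 (−0.095 to 0.047), and for mock levels, DMI2 (−0.096 to 0.20), DMI3 (−0.28 to 0.42) and VAPYRIN (−0.23 to 0.20) in Hanevalval minus TT8 and DMI3 in TT8 minus ISE36 (−0.48 to 0.21). CYCLOPS had 1 to 53 reads per library, which limits its precision.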
